A study of Mus musculus with 2 samples.

Results

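The genes of glucose uptake, glycolysis, lactate handling, pyruvate entry into mitochondria and the pentose phosphate pathway were followed in ALL211, a mouse leukemia of the T-cell lineage (T-ALL) that arose as 1 primary tumour. The members are 39 named genes, listed by role, and each of the 39 symbols matched 1 row among the 27179 genes of the count table. The rule that lists them uses no measured value, but they were chosen with earlier results of these data known. Both groups carry Vav-tTA and TRE-GFP-shIkaros, in which a tetracycline-controlled transactivator, driven from the blood cell promoter of Vav, runs a short hairpin RNA against Ikaros (gene Ikzf1) together with GFP. Doxycycline (Dox) shuts the hairpin off, so that Ikaros, a DNA-binding regulator of lymphocyte development, can return. The untreated group is 1 RNA sequencing library of GFPhigh cells. The other group is 1 library of GFPmid cells from animals given Dox for 3 days. Both were sorted from spleens of leukemic recipient mice. ALL211 is a single primary leukemia, no age or strain of the recipients is given in the sources used here, and Dox-treated cells without the hairpin were not analysed here. The design text names 2 mice per condition, and the sources used here do not say whether their RNA was pooled.

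With 1 library per group there is no spread between replicates and no test between conditions. Each ratio therefore carries a 95% interval for counting error only, and PCR copies of a molecule are not independent, so these intervals can be too narrow. Treatment, GFP gate and animal all differ between the libraries and cannot be told apart. The libraries held 16960042 and 16484613 counts. Ikzf1, the gene the hairpin targets, had 2057 and 20131 counts in the untreated and the Dox library, the direction the labels give. All 10 T-cell markers were detected in both libraries, with a summed level of 6189 and 7661 CPM (counts relative to library size, here scaled with TMM, a factor per library that balances most genes). Macrophage markers summed to 81.0 and 439.0 CPM, with 16 and 17 of 18 detected. Marco was at 0 in both libraries and Cd14 at 0 in the untreated library. In sorted bulk RNA, fewer cells of a type and less RNA per cell cannot be told apart.

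Glycolysis splits glucose into pyruvate in the cytosol. Lactate dehydrogenase then turns pyruvate into lactate, which leaves through monocarboxylate transporters, or the pyruvate dehydrogenase complex passes it to the mitochondrial citric acid cycle. The pentose phosphate pathway branches off after hexokinase and supplies NADPH and ribose for nucleotides. Dividing lymphoid cells are known for high glucose use, and most steps can be run by several isozymes, encoded by different genes with different tissue patterns and control. Myc and the hypoxia factor HIF-1 are known activators of many of these genes.

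Of the 39 genes, 38 reached 1 CPM in at least 1 library. Pdk2, with 2 and 8 counts, did not. Of the 38, 7 were at least 2-fold lower in the Dox library: Hk2, Tpi1, Pgam1, Tkt, Gapdh, Pgk1 and Pfkfb3. That is 18.4%, while 13.0% of all 12125 genes measured were lower by that much, so the count lies near the background. The 3 genes higher by 2-fold or more were Hk3, Eno2 and Pfkfb4, or 7.89% against 13.6% of all genes. Hk3 and Eno2 passed the 1 CPM filter through the Dox library alone. The median log2 fold of the 38 genes was -0.27, beside -0.01 over all genes, and 26 of the 38 values were below 0, beside 6142 of the 12125 over all genes. Counting intervals lay wholly beyond 2-fold for 5 of the lower genes (Hk2, Tpi1, Pgk1, Pgam1 and Tkt) and for 1 higher gene, Hk3, beside 8.38% lower and 9.11% higher of all genes. Of the 7 lower genes, Pfkfb3 lay nearest to the 2-fold line, at -1.05. Nearest to it among the genes that did not reach 2-fold were Pgls (-0.94), Pfkl (-0.92), Dlat (-0.90), Ldha (-0.84) and Slc16a1 (-0.84).

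Read counts per kilobase of gene (RPKM), used here whenever levels of different genes are compared, showed where most of the pathway's RNA lay. The 5 highest genes in the untreated library were Ldha, Pkm, Aldoa, Tkt and Tpi1. They made up 60.0% of the summed RPKM of the 39 genes there and 48.5% in the Dox library. The sum itself was 3137 RPKM in the untreated and 2116 RPKM in the Dox library, a ratio of 0.674. In counts, the 39 genes took 123412 of the untreated and 81474 of the Dox counts, a ratio of summed CPM of 0.688 with an interval of 0.682 to 0.694.

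**Figure D1:**
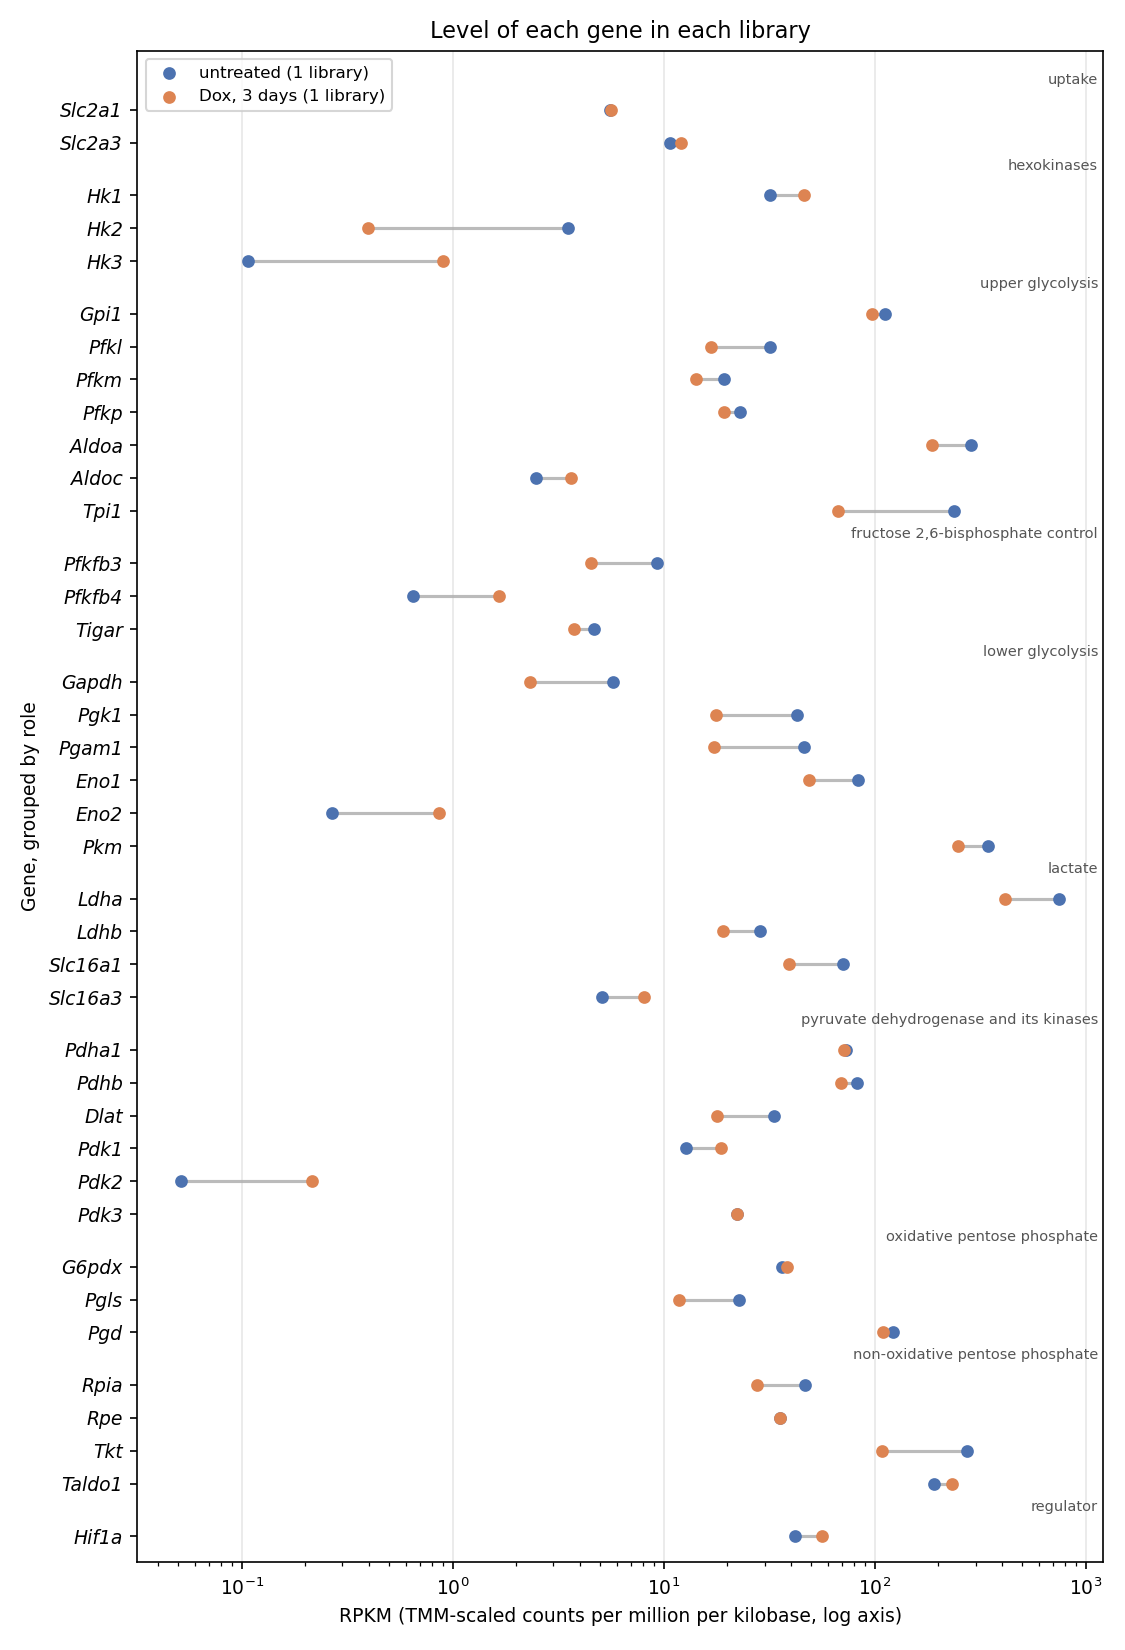
Level of each of the 39 genes in RPKM (log axis) in the untreated library (blue) and the Dox library (orange), grouped by role. Ldha is highest in both libraries, at 745.5 and 415.6 RPKM, and the wide gaps belong to Hk2, Hk3, Tpi1, Pgam1, Tkt, Pgk1 and several genes of low level.

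Several of these genes have processed copies in the genome, intronless relics of reverse-transcribed mRNA, which can share reads with the parent gene. Copies were sought among annotated mouse transcripts, pseudogenes included, as other genes that matched at least 50% of a member's coding sequence at 90% identity or more. Of the 39 genes, 25 had no such copy. Gapdh had 162, of which 158 were annotated as pseudogenes. Ldha had 12, Eno1 7, Aldoa 6, Pkm 5, Pgam1 3 and Pgk1 2. The share of 50-base windows of the transcript that also occurred in another gene was 90.4% for Gapdh, 72.2% for Eno1, 68.0% for Pgk1, 41.5% for Pgam1, 30.5% for Pkm, 30.3% for Pdhb, 27.0% for Ldhb, 19.3% for Gpi1, 16.6% for Ldha, 13.5% for Aldoa and 10.9% for Taldo1, and the levels of all these genes carry that limit. It was 7.51% for Tpi1 and 0 for Hk2 and Tkt.

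Gapdh (Entrez 14433; chr6:125161852-125166467), the glyceraldehyde phosphate dehydrogenase gene and a common reference transcript, had only 121 counts in the untreated and 47 in the Dox library. That is 5.75 and 2.33 RPKM, far below Tpi1, the enzyme before it, at 236.2 RPKM in the untreated library. Its pseudogene Gm12070 on chromosome 11 had 705 and 398 counts, 5.83 and 8.47 times those of Gapdh. The 60-base stretches of coding sequence below show how alike the gene and this copy are, with the single difference among 999 aligned bases in capitals (99.9% identity).
Gapdh: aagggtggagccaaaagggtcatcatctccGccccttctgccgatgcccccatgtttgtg
Gm12070: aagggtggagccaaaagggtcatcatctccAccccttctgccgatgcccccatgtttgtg
A read within these aligned bases that misses the difference cannot be placed in one of them rather than the other. Gapdh taken with the 6 copies that have rows of their own had 887 and 481 counts, and its log2 fold was then -0.82 (interval -0.99 to -0.66), within 2-fold, in place of -1.27 (interval -1.82 to -0.81) for its own row. The level of Gapdh in these data is therefore uncertain, since the sources used here do not say how reads with several placements were counted.

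Eno1, the ubiquitous enolase gene, was in the same position. It had 2514 and 1418 counts, and its near-identical copy Eno1b (99.4% identity) had 2605 and 1334, or 1.04 and 0.941 times as many. Added together they had 5119 and 2752 counts and a log2 fold of -0.84, close to the -0.77 (interval -0.86 to -0.67) of Eno1 alone. For Aldoa, the 2 copies with rows held 1037 and 550 counts against 8911 and 5567 for the gene. Ldha had 24561 and 13138 counts of its own and its 1 copy with a row 370 and 177. The log2 folds of these 2 genes with copies added, -0.64 and -0.84, stayed near those of their own rows, -0.62 and -0.84. Without the 11 genes that share at least 10% of their windows, 4 of 27 genes were at least 2-fold lower (14.8%, near the 13.0% of all genes). The median log2 fold was then -0.030.

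**Figure D2:**
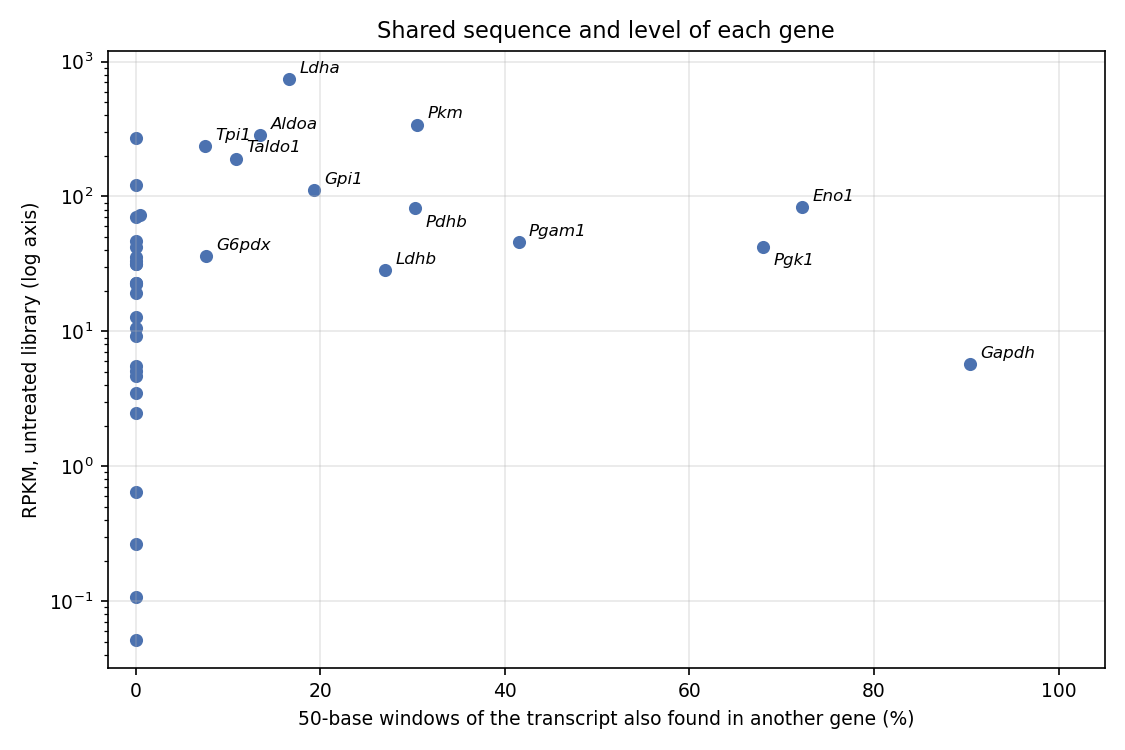
Share of 50-base windows of each gene's transcript that also occur in another annotated gene (x axis, %) against the RPKM of the gene in the untreated library (log axis), 1 point per gene. Gapdh lies far to the right and low, at 90.4% and 5.75 RPKM.

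The glucose transporters differed little. Slc2a3, which encodes GLUT3, had 10.7 RPKM in the untreated and 12.0 RPKM in the Dox library, and Slc2a1, which encodes GLUT1, had 5.56 and 5.65 RPKM. Slc2a3 thus held 65.7% and 68.0% of the summed RPKM of the pair. With the unlisted transporter genes of this family counted, Slc2a3 still led but held 43.1% and 41.3%. The log2 folds of Slc2a3 and Slc2a1 were 0.17 (interval 0.02 to 0.32) and 0.02 (interval -0.24 to 0.29). Among the transporters of the companion list, the high-affinity urate and fructose transporter gene Slc2a9 was at 2.76 and 5.66 RPKM, and Slc2a4, the insulin-responsive transporter gene, had 22 and 0 counts.

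Hexokinase traps glucose in the cell, and its genes included the members with the lowest and the highest log2 fold, Hk2 and Hk3. Hk1 was the main isozyme in both libraries, with 31.7 and 46.1 RPKM, or 89.7% and 97.3% of the 3 listed hexokinases. Its log2 fold was 0.54 (interval 0.46 to 0.61). Hk2 (Entrez 15277; chr6:82725025-82774454), the inducible isozyme of growing and tumour cells, had 331 counts in the untreated and 36 in the Dox library. Its level went from 19.4 to 2.20 CPM, 8.82-fold lower (log2 fold -3.07, interval -3.68 to -2.64), and its share of the step from 9.95% to 0.842%. Hk3, the isozyme known from myeloid cells, had 6 and 48 counts, or 0.351 and 2.93 CPM (ratio 8.34, log2 fold 2.70, interval 1.83 to 4.58). The Dox library was also higher by 2-fold or more in all 15 measured macrophage markers (median log2 fold 2.59), beside 13.6% of all genes. So were all 7 measured dendritic, the 2 measured B-cell, 7 of 10 erythroid and 2 of 4 neutrophil markers. Of 4 stromal and endothelial markers, 0 were higher and 2 lower by 2-fold or more. Only 7 macrophage, 1 dendritic and 0 B-cell markers reached 1 CPM in the untreated library. The others of these 3 lists passed the filter through the Dox library alone, so they could only be higher there. The part of such cells in the values of Hk3, Eno2 and Pfkfb4 was not tested.

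Promoters of 4 lower or abundant genes that hold the letters ACGTG are shown as the 250 bases before the transcription start (GRCm38.p6, from RefSeq). The letters were sought because the hypoxia element and the E-box bound by Myc share them. The lower genes Tpi1, Tkt and Gapdh hold no ACGTG in their windows and are not shown. Capitals mark ACGTG on either strand, and CACGTG, the palindromic E-box, holds overlapping matches on both strands.
Hk2 (chr6:82774455-82774704, minus strand): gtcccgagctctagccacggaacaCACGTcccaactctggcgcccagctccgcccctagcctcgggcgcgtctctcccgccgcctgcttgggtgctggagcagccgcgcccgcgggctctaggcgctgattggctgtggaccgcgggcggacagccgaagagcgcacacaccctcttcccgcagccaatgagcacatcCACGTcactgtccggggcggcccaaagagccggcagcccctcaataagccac
Pgk1 (chrX:106186850-106187099, plus strand): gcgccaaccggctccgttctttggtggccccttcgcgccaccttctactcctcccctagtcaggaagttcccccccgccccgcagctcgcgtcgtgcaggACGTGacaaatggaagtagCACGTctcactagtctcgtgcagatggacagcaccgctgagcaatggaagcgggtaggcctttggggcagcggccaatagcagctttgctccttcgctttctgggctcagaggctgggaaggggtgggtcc
Pgam1 (chr19:41911621-41911870, plus strand): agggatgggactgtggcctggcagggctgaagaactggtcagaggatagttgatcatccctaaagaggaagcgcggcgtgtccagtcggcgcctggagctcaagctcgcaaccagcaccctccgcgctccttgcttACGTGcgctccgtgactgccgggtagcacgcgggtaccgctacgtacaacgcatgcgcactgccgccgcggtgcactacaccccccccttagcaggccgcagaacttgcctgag
Ldha (chr7:46845554-46845803, plus strand): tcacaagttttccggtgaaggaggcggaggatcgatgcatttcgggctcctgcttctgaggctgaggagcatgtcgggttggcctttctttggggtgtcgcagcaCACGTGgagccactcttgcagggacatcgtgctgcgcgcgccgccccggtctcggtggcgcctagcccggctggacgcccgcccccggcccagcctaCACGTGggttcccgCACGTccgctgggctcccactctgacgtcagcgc
Of the windows that RefSeq gives for Ldha, 1 is shown. Hk2 and Pgk1 each hold 2 runs and Pgam1 1. Ldha holds 3, of which 2 are CACGTG. Over the 53 windows that RefSeq gives for 38 of the 39 genes, 6 held CACGTG (11.3%, against 6.02% of all 32851 windows), in Hif1a, Ldha, Pdk2, Pfkfb3, Pfkm and Slc16a1. ACGTG was in 19 of the 53 windows (35.8%, against 16.6%). Of the 7 lower genes, 4 held ACGTG (Hk2, Pfkfb3, Pgam1 and Pgk1) and 1 held CACGTG, Pfkfb3. The letters are a description of these windows and do not show a bound site.

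Phosphofructokinase, the committed step of glycolysis, was spread over 3 genes, and it was the only one of the 9 steps with several listed isozymes whose leading isozyme differed between the libraries. Pfkl, the liver-type gene, led in the untreated library with 31.8 RPKM and was at 16.8 RPKM in the Dox library. Pfkp, the platelet-type gene, had 22.9 and 19.4 RPKM and led in the Dox library. Pfkm, the muscle-type gene, was lowest in both, with 19.3 and 14.3 RPKM. Pfkl went from 43.0% to 33.3% of the step and Pfkp from 30.9% to 38.4%. In log2 folds, Pfkl was at -0.92 (interval -1.03 to -0.81), Pfkm at -0.44 and Pfkp at -0.24.

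The step is tuned by a sugar bisphosphate that the Pfkfb enzymes make and that Tigar, a p53 target, removes. Pfkfb3 had 9.32 and 4.51 RPKM, from 841 and 390 counts (log2 fold -1.05, interval -1.23 to -0.87). Pfkfb4 differed in the other direction, with 37 and 91 counts, or 0.645 and 1.65 RPKM (log2 fold 1.31, interval 0.79 to 1.95). Pfkfb3 remained the larger of the pair, with 93.5% and 73.2% of their sum. With the unlisted Pfkfb genes counted, Pfkfb3 held 71.0% and 52.6%. Tigar was at 4.65 and 3.76 RPKM (log2 fold -0.30).

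The remaining upper steps were carried by single genes. Gpi1, glucose phosphate isomerase, had 111.5 and 97.0 RPKM (log2 fold -0.20, interval -0.26 to -0.14). Aldoa supplied 99.1% and 98.1% of the aldolase pair, with 286.2 and 186.4 RPKM (log2 fold -0.62), while Aldoc, the brain-type gene, had 72 and 101 counts (ratio 1.46, interval 1.07 to 2.01). Tpi1 (Entrez 21991; chr6:124810586-124814158), triose phosphate isomerase, had the lowest log2 fold of the 25 members with at least 20 RPKM in the untreated library. It had 6456 and 1762 counts, or 236.2 and 67.2 RPKM, and was 3.52-fold lower in the Dox library (log2 fold -1.81, interval -1.89 to -1.74).

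From Gapdh to Pkm, the lower part of glycolysis, the median log2 fold was -1.02. Past 2-fold downward lay 3 of 6 genes, Gapdh, Pgk1 and Pgam1 (50%, beside 13.0% of all genes). Upward lay 1, Eno2 (16.7%, beside 13.6%). With copies added, Gapdh was within 2-fold at -0.82, and the median was -0.83. Pgk1 (Entrez 18655; chrX:106187100-106203699), phosphoglycerate kinase, had 1309 and 519 counts, or 42.6 and 17.6 RPKM, 2.42-fold lower (log2 fold -1.27, interval -1.42 to -1.13). Pgam1 (Entrez 18648; chr19:41911871-41918665), phosphoglycerate mutase, had 1440 and 519 counts, or 46.1 and 17.3 RPKM, 2.66-fold lower (log2 fold -1.41, interval -1.56 to -1.27). Both have sequence in common with other genes, as given above, so their levels are uncertain. Eno1 made up 99.7% and 98.3% of the sum of Eno1 and Eno2, and the neuronal-type Eno2 had only 12 and 37 counts (log2 fold 1.53, interval 0.71 to 2.76). With the unlisted muscle-type gene Eno3 counted, Eno1 held 73.4% and 76.9%. These shares take the row of Eno1 alone and are lower for it, since Eno1 with Eno1b added was at 168.8 and 94.6 RPKM. Eno3 was at 29.8 RPKM in the untreated and 13.7 RPKM in the Dox library. Pkm, pyruvate kinase, was the second most abundant gene in both libraries, with 341.7 and 248.5 RPKM (log2 fold -0.46, interval -0.50 to -0.42). Gene counts do not separate its M1 and M2 splice forms. All 5 genes other than Eno2 share at least 10% of their windows with another gene.

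Ldha (Entrez 16828; chr7:46842274-46855627) was the most abundant of the 39 genes in both libraries. Its 24561 and 13138 counts gave 745.5 and 415.6 RPKM (log2 fold -0.84, interval -0.87 to -0.81). Ldhb, the form that favours the turning of lactate into pyruvate, had 28.4 and 19.2 RPKM (log2 fold -0.57), so that Ldha made up 96.3% and 95.6% of the pair. Among the lactate transporters, Slc16a1, which encodes MCT1, had 70.4 and 39.3 RPKM (log2 fold -0.84, interval -0.91 to -0.77). Slc16a3, which encodes MCT4, the exporter of strongly glycolytic cells, had 5.07 and 8.08 RPKM (log2 fold 0.67, interval 0.42 to 0.92). The share of Slc16a1 in the pair went from 93.3% to 83.0%. Its chaperone gene Bsg, basigin, had 180.2 RPKM in the untreated library and a log2 fold of -0.72.

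The pyruvate dehydrogenase complex differed by subunit. Pdha1 and Pdhb, the subunits of its decarboxylase, had 72.9 and 71.5 RPKM and 82.2 and 69.3 RPKM (log2 folds -0.03 and -0.25). Dlat, its acetyltransferase core, had 33.3 and 17.8 RPKM (ratio 0.536, interval 0.499 to 0.575). Of the kinases that switch the complex off, Pdk3 led per length, with 22.3 RPKM in both libraries (761 and 729 counts, ratio 0.998). Pdk1, a HIF-1 target, was at 12.7 and 18.7 RPKM (log2 fold 0.56, interval 0.45 to 0.67), and its share of the 3 kinases went from 36.2% to 45.4%. In CPM, with no scaling for length, Pdk1 led in both libraries, with 65.2 and 96.1 CPM against 44.6 and 44.5 CPM for Pdk3.

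**Figure D3:**
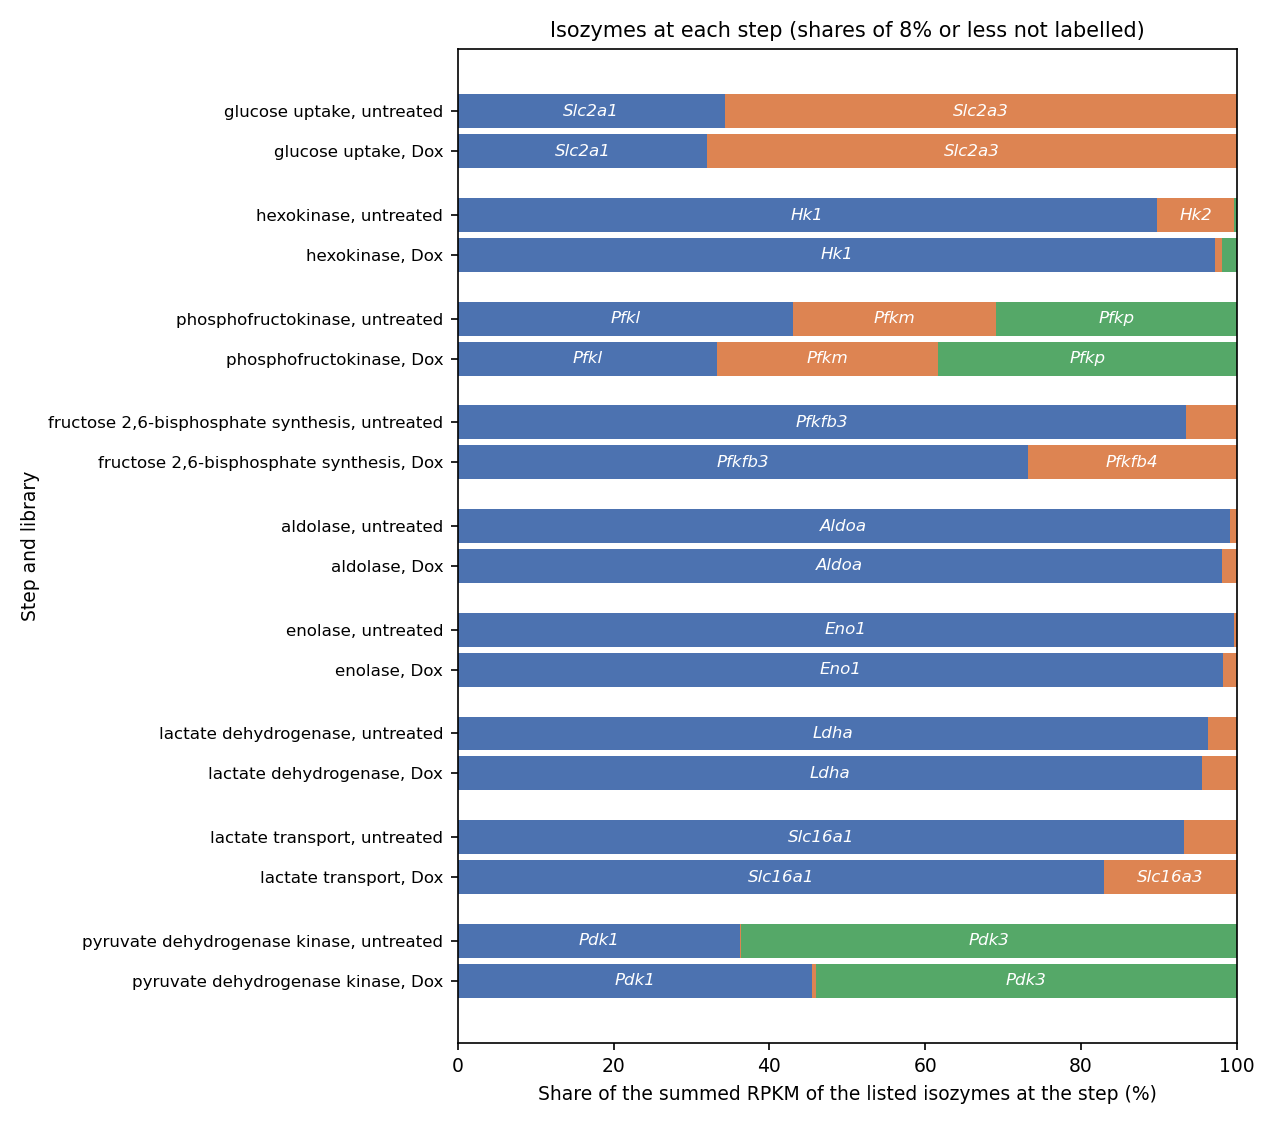
Share of each listed isozyme in the summed RPKM of its step (x axis, %), with the untreated library above the Dox library at each of 9 steps. Hk1, Aldoa, Eno1 and Ldha fill most of their bars, Hk2 all but leaves the hexokinase bar in the Dox library, and the phosphofructokinase bar is split among 3 genes.

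In the oxidative arm of the pentose phosphate pathway, which yields NADPH, 0 of 3 genes were 2-fold different, beside 26.6% of all genes. G6pdx, the entry enzyme, had 36.2 and 38.4 RPKM (log2 fold 0.09, interval -0.01 to 0.19). Pgd, the 6-phosphogluconate dehydrogenase, had 122.5 and 109.6 RPKM (log2 fold -0.16). Pgls, the lactonase between them, had 343 and 170 counts, or 22.8 and 11.8 RPKM (log2 fold -0.94, interval -1.23 to -0.68).

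The non-oxidative arm, which exchanges carbon between pentoses and glycolysis, held 1 gene past 2-fold. Tkt (Entrez 21881; chr14:30549131-30574724), transketolase, had 14881 and 5679 counts, or 271.8 and 108.1 RPKM. It was 2.51-fold lower in the Dox library (log2 fold -1.33, interval -1.37 to -1.29). Taldo1, transaldolase, which works beside it, had 190.9 and 231.5 RPKM (log2 fold 0.28, interval 0.22 to 0.34). Tkt stood above Taldo1 in the untreated library and below it in the Dox library. Rpia, which makes ribose phosphate, had 46.4 and 27.6 RPKM (log2 fold -0.75), and Rpe, its epimerase partner, 35.5 and 35.4 RPKM (log2 fold -0.01). Over both arms the median was -0.16, with Tkt the 1 of 7 genes past 2-fold (14.3%, near the 13.0% of all genes lower by that much). The 18 enzymes from glucose to lactate had a median of -0.59, with 5 past 2-fold downward (27.8%, beside 13.0% of all genes) and 2 upward (11.1%, beside 13.6%). Of the 5, Gapdh, Pgk1 and Pgam1 share 90.4%, 68.0% and 41.5% of their windows with other genes, so their levels are uncertain. With copies added, Gapdh was within 2-fold at -0.82. The others of the 5 were Hk2 and Tpi1, which share 0 and 7.51%. Both upward genes, Hk3 and Eno2, passed the 1 CPM filter through the Dox library alone, so they could only be higher.

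**Figure D4:**
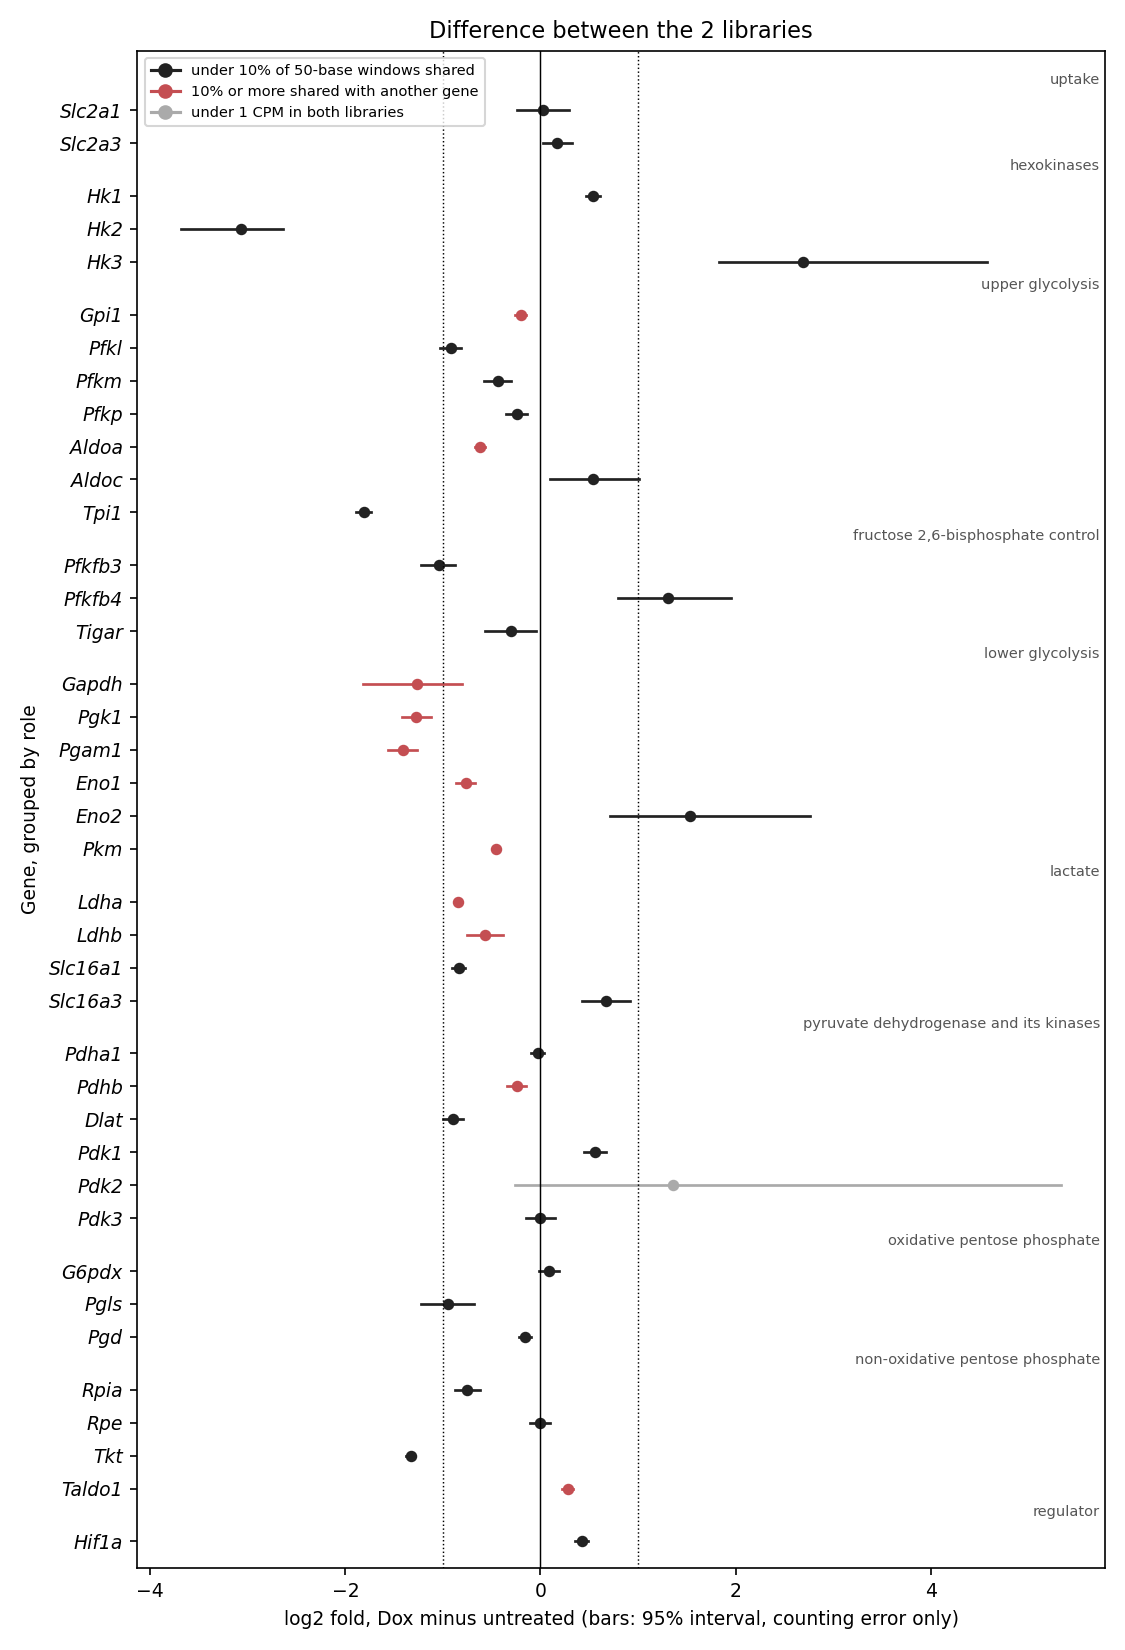
Log2 fold of each gene, Dox minus untreated, with its 95% interval for counting error, grouped by role. Red marks genes with at least 10% of their 50-base windows in another gene, grey marks Pdk2, which was under 1 CPM in both libraries, and dotted lines mark 2-fold. Hk2 at -3.07 and Tpi1 at -1.81 lie farthest to the left, and Hk3 at 2.70 farthest to the right.

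Hif1a, the oxygen-regulated subunit of HIF-1, had 42.0 and 56.3 RPKM (log2 fold 0.42, interval 0.36 to 0.49). Its activity is set mainly by protein stability, which RNA counts do not show. Of 19 measured genes listed for the hypoxia response outside glycolysis, 3 lay past 2-fold downward (15.8%, beside 13.0% of all genes). Past 2-fold upward lay 2 (10.5%, beside 13.6%), and the median was 0.29. The list also holds parts of the HIF pathway itself, Epas1, Arnt, Vhl and Hif1an, at 0.49, 0.40, 0.33 and 0.29. Its median therefore does not describe induced genes alone. The 19 genes went both ways, with 8 below 0 and 11 above. The vasoactive peptide gene Adm had 203 and 12 counts (log2 fold -3.82), the carbonic anhydrase gene Car12 265 and 34 (log2 fold -2.83) and Fam162a 2130 and 693 (log2 fold -1.56), whereas the mitophagy receptor gene Bnip3l had 1178 and 2642 (log2 fold 1.22). Of other regulators, Myc was at 265.7 and 18.9 CPM. Txnip, which restrains glucose uptake and is induced by glucose metabolites, was at 77.8 and 282.9 CPM (log2 fold 1.86).

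Among 53 further genes of the pathway (rarer isozymes, regulators of pyruvate dehydrogenase, pyruvate carriers, ribose and gluconeogenic enzymes), 31 were measured. Past 2-fold lay 8 downward (25.8%, beside 13.0% of all genes) and 3 upward (9.68%, beside 13.6%), and the median was -0.33. Of the lower genes, Ldhd and Slc2a4 passed the 1 CPM filter through the untreated library alone, so they could only be lower. Of the higher ones, Pcx passed through the Dox library alone and could only be higher. The lactate dehydrogenase gene of the D form, Ldhd, had 32 and 0 counts and was at least 10.2-fold lower against a floor of 3 counts per library. Slc2a4 was at least 7.04-fold lower on the same basis. These bounds take the untreated counts as exact. G6pc3, the ubiquitous glucose phosphatase, had a log2 fold of -1.42, and Tktl1, a transketolase-like gene, 1.58, from 72 and 210 counts.

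All 16 genes of the tricarboxylic acid cycle had negative log2 folds, as did 6142 of all 12125 genes, and their median was -0.37. At least 2-fold lower were 3 of them, Suclg2 (-1.39), Fh1, fumarate hydratase (-1.29), and Idh3a (-1.07), a share of 18.8% near the 13.0% of all genes. The branches that leave glycolysis differed from each other. Phgdh and Psat1, the enzymes of the serine branch, had log2 folds of -1.76 and -1.43, and Psph, the last of that branch, -0.14. The 4 hexosamine genes lay within 2-fold (median -0.20), as did 8900 of all 12125 genes. Of the 5 glycogen genes, 4 were above 0 (median 0.53), as were 5983 of all 12125 genes. The glycogen phosphorylase gene Pygl, with 27 and 54 counts, lay just past 2-fold at 1.01 (interval 0.37 to 1.78). The 3 glycerol 3-phosphate genes had a median of 0.58, with Gpd1l at 0.80. The differences between these lists were not tested.

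**Figure D5:**
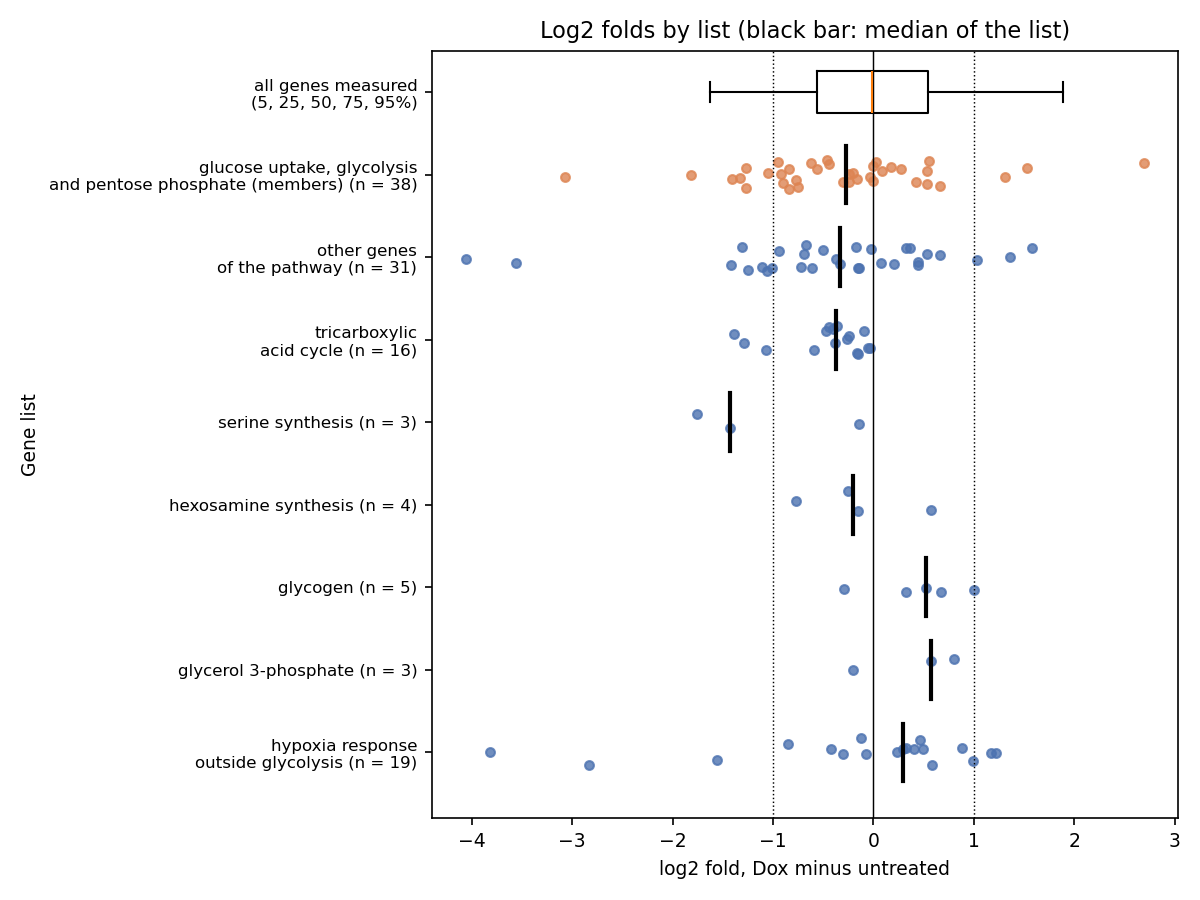
Log2 folds, Dox minus untreated, of the 38 measured members (orange) and of 7 other gene lists (blue), 1 point per gene with the median as a black bar; the box shows the quartiles of all 12125 genes with whiskers at the outer 5%. Ldhd and Slc2a4, at 0 in the Dox library, are the leftmost points of the other pathway genes, where their place depends on the prior count. The medians of the members and of the tricarboxylic acid cycle lie at -0.27 and -0.37. The list of hypoxia response genes, which includes genes of the HIF pathway itself, lies at 0.29.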

How the data were processed

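RNA sequencing counts of 1 untreated and 1 Dox library were used as the authors deposited them, as raw read counts per Entrez gene with a gene length column. The submitters' processing notes name featureCounts, CASAVA 1.8.2 and mm10. Aligner, strand setting, annotation and handling of reads with several placements are not stated there or in the labels, and without a known strand setting overlapping genes cannot be told apart. The series table and the sample tables held the same counts (0 of 27179 genes differed). Symbols and coordinates came from the RefSeq table of GRCm38.p6, which named 25275 genes.

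Counts were scaled with TMM (edgeR 4.0.16, R 4.3.3; factors 1.01 and 0.994). Log2 folds subtract log2 CPM values to which a prior of 2 counts was added, while CPM, RPKM and ratios carry none. The 12125 genes that reached 1 CPM in either library were kept. A floor of 3 counts equals 0.176 and 0.183 CPM. Ratios have exact Clopper-Pearson 95% intervals from the conditional binomial distribution. Copies were found with blastn 2.17.0 and 50-base windows in GENCODE vM21 transcripts. The text describes genes at least 2-fold different, leading isozymes, the 4 genes listed for pseudogenes, Hif1a, Myc, Txnip, and up to 4 genes per further list, those with the largest absolute log2 fold. Bsg, Eno3, Slc2a9 and Psph were named outside this rule, after their values were seen. Members and lists were chosen with earlier results of these data known. Steps were tested on simulated counts. Alternatives included DESeq2 1.42.0 size factors; those on shared windows and added copies were chosen after seeing the data. Python 3.11.15 was used.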

Additional observations from a re-analysis of the deposited data

How the results depend on the processing

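No paired analysis was possible because each group has 1 library. Single genes were recomputed under 11 of the alternatives (scalings, prior counts, filters, thinning, the length trend and added copies), and 415 of 416 values kept their side of 2-fold. The alternatives on shared windows and added copies were chosen after seeing the data. The exception was Gapdh with copies added, at -0.82, and 5 values changed sign. Part of the 416 values could not differ by construction. A changed filter decides which genes are kept and left every log2 fold as it was. Adding copies altered only Eno1, Gapdh, Ldha, Aldoa, G6pdx and Pdha1. Such values tell nothing about stability, so the tally of 415 overstates it. Genes at least 2-fold lower numbered 4 without those sharing windows and 1 (Hk2) at 4-fold; genes at least 2-fold higher numbered 1 with a filter of 5 CPM, 1 by interval and 1 at 4-fold. Without genes sharing windows, medians were -0.030 for all members, -0.086 for lactate genes, -0.75 for the non-oxidative arm and, reversed, 1.53 for lower glycolysis, where Eno2 alone was left. Without Gapdh, Ldha, Pgk1 and Eno1 they were -0.46 for lower glycolysis and -0.57 for lactate genes, and the summed RPKM ratio was 0.722. At 5 CPM they were -1.27 for hexokinases, where Hk3 dropped out, and -1.27 for lower glycolysis, and 5 further pathway genes were at least 2-fold lower. Removing a trend with gene length gave 0.43 for hexokinases and 0.31 for Hif1a. The summed ratio was 0.688 in CPM, 0.666 with total counts and 0.664 with DESeq2 factors. ACGTG in place of CACGTG was found in promoters of 16 members. Where no construction is named, the cause was not tested. Depth limits Pdk2, Hk3, Eno2 and Pfkfb4, each with under 100 counts per library.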
